A study of Mus musculus with 4 samples.

Results

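Twist1, Twist2, Snai1, Snai2, Zeb1 and Zeb2, 6 transcription factors of mesenchymal cells, were followed together with vimentin (Vim) through 4 RNA-seq libraries of sorted embryonic mouse dermal cells. The 7 genes were taken by symbol from tables that hold 33126 named gene units, and all 7 were listed in every library with a value above 0. Rows for 5 of them carried the symbol alone. Zeb1 was listed as a locus joined with Zeb1.1 and Zeb2 as a locus joined with Mir5129, so those 2 values cover everything assigned to the joined locus. Values are FPKM (fragments per kilobase, corrected for how many fragments the library had), printed as the authors deposited them.

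Dermal cells were sorted by an Axin2-LacZ reporter, which the labels name for all 4 groups; Axin2 is switched on by Wnt signalling and feeds back on it. One source was ventral skin of the foot at E17.5 and the other dorsal skin of the back at E14.5, and each was divided by cell sorting into a library labelled Axin2-positive and a library labelled Axin2-negative. The sources used here do not give strain, sex, litter or the pooling of embryos. Each group was 1 library, so no difference has a replicate check, and no p-value or standard error exists. Foot and back differ in body site and in embryonic age at once, and these cannot be told apart.

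The median half-width of the authors' bounds was 23.1% of the FPKM in the foot library labelled positive, 14.1% in the foot library labelled negative, 8.99% in the back library labelled positive and 9.92% in the back library labelled negative, so the foot values are the less precise. These bounds cover counting and read assignment within 1 library, their confidence level is not stated, and 6 of the 28 member values lay outside their own bounds. All 9 fibroblast markers, among them Twist2, were at least 1 FPKM in all 4 libraries, with summed levels between 3099 and 7191 FPKM. Axin2 itself was 9.65 FPKM in the foot library labelled positive and 12.9 in the one labelled negative, against its label, and 4.49 and 3.13 in the back libraries in that order. As deposited, the bounds of Axin2 overlapped in the foot and not in the back. After rescaling they overlapped in both skins, and the rescaled log2 ratios of Axin2 were -0.15 ± 0.50 and 0.25 ± 0.26. Directions are therefore given by library label.

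Twist1 and Twist2 are basic helix-loop-helix factors that pair with E proteins, and Twist2 is a classical marker of dermal precursors. Snai1 and Snai2 are zinc finger repressors and Zeb1 and Zeb2 are zinc finger and homeodomain factors; both families recognise E-boxes and repress epithelial genes such as Cdh1, the gene of E-cadherin. Vimentin is the intermediate filament protein of mesenchymal cells. In embryos these factors act in gastrulation, in neural crest and in mesenchyme.

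The binding site that defines the repressor families is short, and 3 promoters show it in the genes at issue. The sequences below are the 250 bases before the annotated start in RefSeq (GRCm38.p6), 5′ to 3′ on the gene's strand, with each CACCTG or CAGGTG E-box in capitals. Snai1 (chr2:167537945-167538194, plus strand) was the only one with such an E-box among the 5 members that had entries, 126 bases before its start. Snai2 and Zeb1 had no entry and were not searched. Epcam (chr17:87635729-87635978, plus strand) and Crb3 (chr17:57061951-57062200, plus strand), an epithelial adhesion gene and an epithelial polarity gene, held 2 and 3.
Snai1: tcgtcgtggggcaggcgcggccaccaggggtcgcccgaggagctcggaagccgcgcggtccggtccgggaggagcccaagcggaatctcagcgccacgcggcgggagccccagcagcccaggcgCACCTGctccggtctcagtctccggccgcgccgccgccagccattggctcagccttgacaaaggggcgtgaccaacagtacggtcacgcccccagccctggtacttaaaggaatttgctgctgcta
Epcam: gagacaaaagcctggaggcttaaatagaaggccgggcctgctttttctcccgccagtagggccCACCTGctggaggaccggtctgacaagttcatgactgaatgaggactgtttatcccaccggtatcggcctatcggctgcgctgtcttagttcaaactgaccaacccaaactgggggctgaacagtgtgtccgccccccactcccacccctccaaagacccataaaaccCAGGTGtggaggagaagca
Crb3: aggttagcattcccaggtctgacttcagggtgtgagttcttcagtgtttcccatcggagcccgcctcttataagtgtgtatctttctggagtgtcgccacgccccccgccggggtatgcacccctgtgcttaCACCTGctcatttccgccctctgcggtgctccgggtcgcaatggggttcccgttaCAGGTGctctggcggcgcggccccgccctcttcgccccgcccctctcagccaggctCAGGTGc
Of 32851 RefSeq promoters of this length, 17.2% held CACCTG or its reverse complement CAGGTG. Among the 7 genes 5 had entries, with 8 promoters, and 1 of the 8 held the E-box. Of 20 epithelial junction and polarity genes listed for comparison, 14 had entries with 20 promoters, and 12 of those promoters (60.0%), in 10 genes, held it. That list was assembled partly from known targets of these repressors, so the share describes the list and is not independent evidence. The TCF/LEF motif of Wnt target genes, searched on both strands as CTTTG followed by 2 bases that are each A or T, was in 14.8% of all promoters and in 0 of the members' 8. A match is a run of letters in this window only.

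Vimentin was the most abundant of the 7. It was 717 FPKM in the foot library labelled positive, 847 in the foot library labelled negative, 603 in the back library labelled positive and 598 in the back library labelled negative. The order of abundance ran Vim, Twist1, Twist2 and Zeb2 in each library, and for Vim both foot libraries lay above both back libraries as deposited, with bounds that did not overlap. Within each library 99.4% to 99.7% of coding genes of at least 1 FPKM lay below Vim. The last value lay above its own bounds of 457 to 481 FPKM.

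To compare libraries, each was divided by a median-ratio factor (1.08, 1.29, 0.915 and 0.787 in the order just used), and log2 ratios were taken of FPKM + 1. The number after ± combines the authors' bounds of both libraries and is called the half-width here. Without the factors the median over all coding genes shifted by -0.23 in the foot, 0.22 in the back, 0.30 between positive libraries and 0.75 between negative libraries. Vimentin had the narrowest spread of the 7 after rescaling. Its highest and lowest libraries were 0.21 apart on the log2 scale, and 1.58% of 6918 coding genes had a smaller range, against a median range of 1.06. Without rescaling its range was 0.50, which 8.31% of genes undercut, and Twist1 had the narrowest, at 0.41. Vim differed by 0.01 ± 0.08 between the foot libraries and by 0.01 ± 0.08 between the positive libraries of foot and back, while the contrasts that use the back library labelled negative were -0.20 ± 0.39 and -0.21 ± 0.39.

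**Figure D1:**
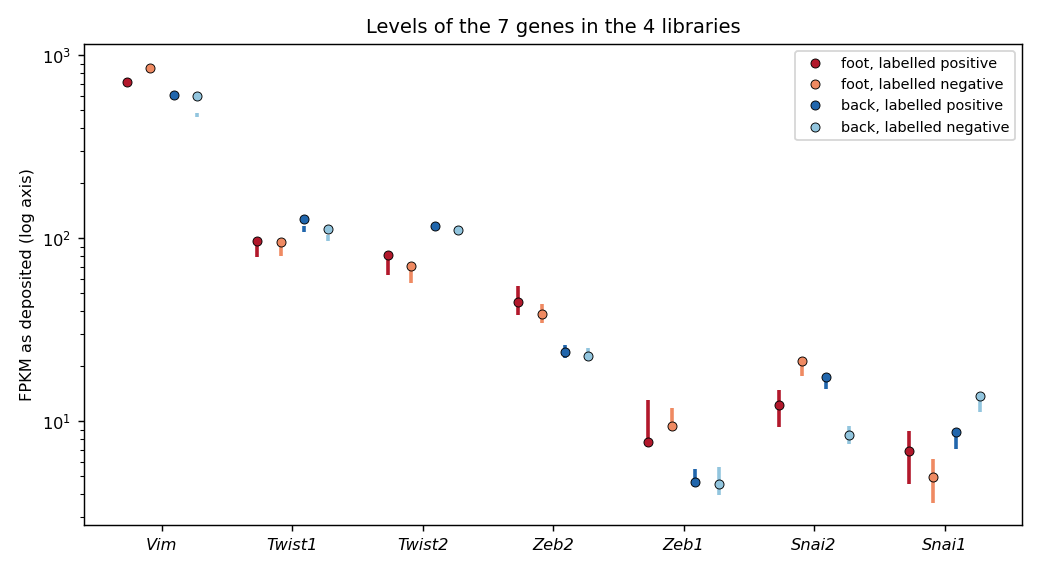
FPKM of the 7 genes in each of the 4 libraries, on a log axis, with the authors' lower and upper bounds as bars. Vim lies between 598 and 847 FPKM, the Twist genes between 70.7 and 127, Zeb2 between 22.8 and 44.6, and Snai1, Snai2 and Zeb1 at or below 21.3.

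The Twist genes came next. Twist1 was 96.8 FPKM in the foot library labelled positive, 95.5 in the foot library labelled negative, 127 in the back library labelled positive and 113 in the back library labelled negative. Twist2 was 80.9, 70.7, 116 and 111 FPKM in the same order. Both genes were higher in both back libraries than in either foot library. The bounds of Twist2 did not overlap between skins, while those of Twist1 did between the foot library labelled positive (79.3 to 97.3) and the back library labelled negative (96.0 to 104). Within a library, between 90.8% and 96.6% of expressed coding genes lay below them. Their paralog balance varied little: the ratio of Twist1 to Twist2 was 1.20, 1.35, 1.09 and 1.01, with bounds that overlapped except in the foot library labelled negative. Where the midpoint of the bounds replaced the FPKM, the back ratios became 0.963 and 0.895, so which Twist gene was the higher in the back depends on that choice.

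Within each skin the Twist genes differed little by Axin2 label. Twist1 was 0.27 ± 0.38 in the foot and -0.05 ± 0.32 in the back, both inside the half-width. Twist2 was 0.44 ± 0.47 in the foot and -0.15 ± 0.09 in the back. The back value of Twist2 was 0.06 without rescaling. Between skins both genes were lower in the foot: the ratios of Twist1 and Twist2 were -0.62 ± 0.36 and -0.75 ± 0.36 in the positive libraries, and -0.94 ± 0.34 and -1.35 ± 0.32 in the negative ones. As deposited, the negative contrasts shrank to -0.24 and -0.65 and kept their sign.

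Zeb2 was the more abundant Zeb gene throughout. It was 44.6 FPKM in the foot library labelled positive and 38.4 in the one labelled negative, against 23.8 and 22.8 in the back libraries labelled positive and negative. Zeb1 was 7.69, 9.44, 4.64 and 4.54 FPKM in that order. Both Zeb genes were listed higher in both foot libraries than in either back library, with bounds that did not overlap between skins, opposite in direction to the Twist genes. Within a library, Zeb2 was 5.81, 4.07, 5.13 and 5.02 times Zeb1. The bounds of the 2 Zeb genes did not overlap in any library.

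After rescaling, the foot excess of Zeb2 was 0.65 ± 0.32 between the positive libraries and 0.04 ± 0.23 between the negative ones (0.88 and 0.73 as deposited). Zeb1 was 0.42 ± 0.73 and 0.30 ± 0.39 in the same contrasts, inside its half-width in both. By Axin2 label Zeb2 was 0.46 ± 0.34 in the foot and -0.15 ± 0.19 in the back. Zeb1 was -0.04 ± 0.75 in the foot. In the back Zeb1 was under 5 FPKM in both libraries, the floor used for counting genes as apart, and its ratio was -0.16 ± 0.34.

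The order among Snai1, Snai2 and Zeb1 changed between libraries: Zeb1 ranked above Snai1 in both foot libraries, with overlapping bounds in the one labelled positive, and below it in both back libraries, and the Snail genes exchanged places in the back. Snai2 was 12.2 FPKM (bounds 9.29 to 14.8) in the foot library labelled positive, 21.3 (17.7 to 22.4) in the foot library labelled negative, 17.52 (15.0 to 17.6) in the back library labelled positive and 8.45 (7.49 to 9.42) in the back library labelled negative. Snai1 was 6.87 (4.55 to 8.85), 4.95 (3.58 to 6.25), 8.75 (7.03 to 8.99) and 13.8 (11.2 to 14.03) FPKM in the same order. Snai2 exceeded Snai1 in 3 libraries and Snai1 exceeded Snai2 in the back library labelled negative, with bounds that did not overlap in any of the 4. Snai2 was lowest where Snai1 was highest, and as deposited Snai1 was lowest where Snai2 was highest; after rescaling Snai2 was highest in the back library labelled positive.

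The ratio of Snai2 to Snai1 needs no scaling between libraries. It was 1.78 (1.08 to 2.92 from the bounds) in the foot library labelled positive, 4.31 (2.96 to 6.27) in the foot library labelled negative, 2.002 (1.53 to 2.62) in the back library labelled positive and 0.612 (0.482 to 0.776) in the back library labelled negative. The balance was thus 2.42-fold lower in the positive than in the negative library of the foot, a factor of 0.413 (0.222 to 0.769). In the back it was 3.27-fold higher (2.28 to 4.68) in the positive library. The positive libraries of the 2 skins differed by a factor of 0.889 (0.506 to 1.56), and the negative libraries by a factor of 7.04 (4.52 to 11.0). Over the same comparisons the balance of the Twist genes differed by at most 1.34-fold and that of the Zeb genes by at most 1.43-fold; between the positive libraries the Snail balance (1.12-fold) differed no more than that of the Zeb genes (1.13-fold).

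**Figure D2:**
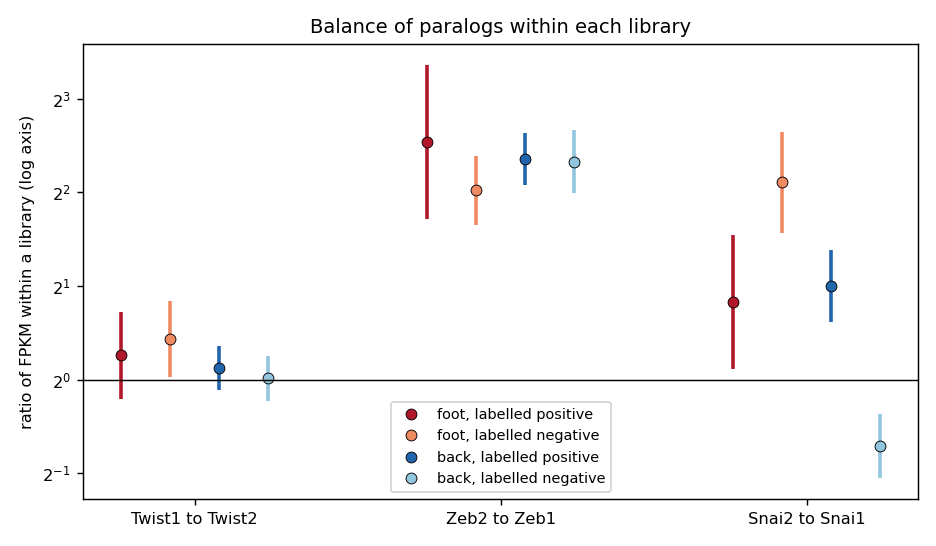
Ratio of the 2 paralogs' FPKM within each library, on a log axis, for Twist1 to Twist2, Snai2 to Snai1 and Zeb2 to Zeb1; lines span the range from the authors' bounds. The Snail ratio runs from 0.612 to 4.31 and crosses 1, while the Zeb ratio stays between 4.07 and 5.81.

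One gene at a time, the ratios of the Snail genes by label had opposite signs in the 2 skins. In the foot, Snai1 was 0.60 ± 0.61 and Snai2 -0.51 ± 0.44 on the rescaled log2 scale, positive against negative. The foot ratio of Snai1 lay inside its half-width, and its bounds overlapped. In the back, Snai1 was -0.81 ± 0.40 and Snai2 0.78 ± 0.26. The foot minus back difference was 1.42 ± 0.73 for Snai1 and -1.29 ± 0.51 for Snai2, and 1.01 and -1.73 as deposited. With 1 library per group this difference could not be tested.

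No member was 2-fold apart by Axin2 label with at least 5 FPKM in the higher library: 0 of 7 in the foot, where 21.8% of 6471 coding genes were, and 0 of the 6 that reached 5 FPKM in the back, where 7.69% of 5277 were. The members' median was 0.27 in the foot and -0.15 in the back, beside 0.00 and 0.01 over all coding genes tested. As deposited the members' medians were 0.02 and 0.06. As deposited, 0 members were past 2-fold in either sort, where 23.8% of genes were in the foot and 8.72% in the back. After rescaling, 11.3% of genes were higher and 10.5% lower in the foot, and 4.26% and 3.43% in the back. The split as deposited was 8.45% and 15.3% in the foot and 6.08% and 2.63% in the back. For the foot minus back difference, 1 member was at least 1 higher (Snai1) and 1 at least 1 lower (Snai2), where 27.2% of 6918 genes were past 1 in either direction, 13.3% higher and 13.9% lower. As deposited the same 2 members were past 1, where 8.09% of genes were higher and 24.8% lower, 32.9% in all.

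**Figure D3:**
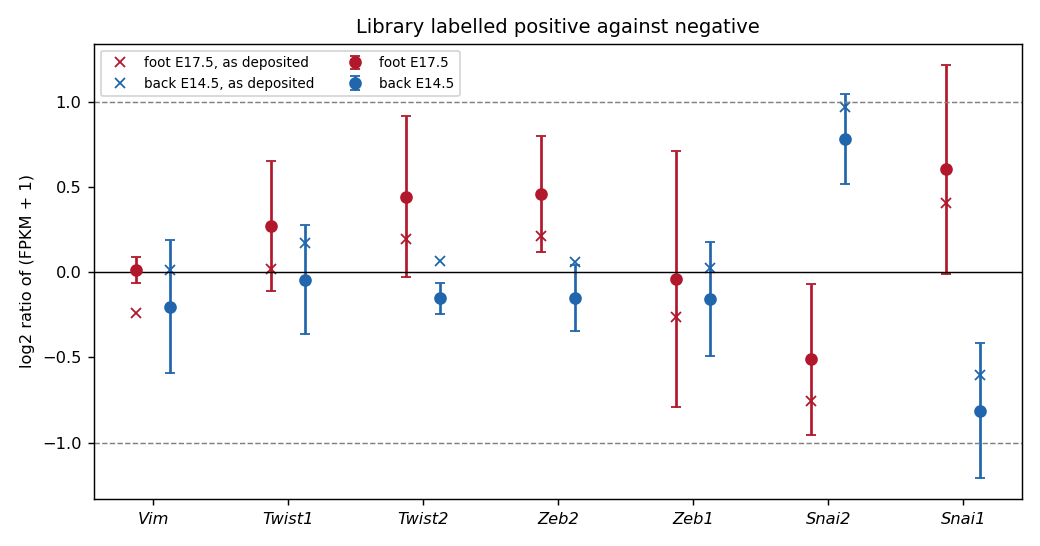
Log2 ratios of the 7 genes, positive against negative library, in foot and back; circles with bars are rescaled ratios with their half-widths, crosses are ratios as deposited, and dashed lines mark 2-fold. All circles lie between -0.81 (Snai1 in the back) and 0.78 (Snai2 in the back), inside the 2-fold lines.

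Sums of erythroid, mast cell and leukocyte markers were higher in the back library labelled negative than in the one labelled positive. Other marker sums in the back, positive then negative, went both ways. Keratinocyte (80.0 and 40.6 FPKM), endothelial (7.94 and 6.57), pericyte (19.2 and 18.3) and Schwann cell sums (0.639 and 0.505) were lower in the negative library. Melanocyte (0.489 and 0.610) and skeletal muscle sums (4.07 and 5.52) were higher in it. The erythroid list, whose 6 genes used here form 3 units, summed to 2621 FPKM in the back library labelled positive and 20989 in the one labelled negative, and to 1111 and 1517 in the foot libraries. All 3 units, the joined alpha-globin locus, the joined beta-globin locus and Alas2, were at or above 1 FPKM in both back libraries, and Alas2 was listed at 0 in both foot libraries. The 6 mast cell markers summed to 24.6 and 83.9 FPKM in the back and to 2.17 and 265 in the foot, with Mcpt4 and Fcer1a listed at 0 in all 4 libraries. The 8 leukocyte markers summed to 4.61 and 17.6 in the back and to 0.588 and 4.72 in the foot, where Ptprc was listed at 0. Snai2 was lower and Snai1 higher in the back library with the larger erythroid, mast cell and leukocyte sums. In the foot the library with the larger sums of these lists, the one labelled negative, had more Snai2 and less Snai1. The erythroid sums lay far closer together in the foot than in the back. The mast cell sums lay further apart in the foot (2.17 and 265) than in the back (24.6 and 83.9). No leukocyte marker exceeded 2.01 FPKM in the foot, and Csf1r went the other way (0.588 in the library labelled positive, 0 in the one labelled negative). The part of such cells in the Snail values was not tested. In bulk samples, fewer cells of a type and less RNA per cell cannot be told apart.

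Comparing skins under 1 label at a time uses the same 4 libraries again, so these contrasts share libraries with those above. Between the positive libraries Snai1 was -0.52 ± 0.57 and Snai2 -0.71 ± 0.42, both lower in the foot. Between the negative libraries Snai1 was -1.94 ± 0.45 and Snai2 0.58 ± 0.30. As deposited the negative values were -1.32 and 1.24. Snai1 thus had the widest rescaled range of the 7, 1.94, and 81.5% of coding genes had a smaller one (1.32 and 54.6% as deposited); Snai2, at 0.78, was wider than 33.0% (50.6% as deposited).

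Between positive libraries 0 of 7 members were 2-fold apart, where 31.2% of 6276 coding genes were, 16.9% higher and 14.3% lower. As deposited 0 members were, where 22% of genes were higher and 10.9% lower, 32.9% in all. Between negative libraries 2 of 7 were lower in the foot, Twist2 and Snai1, where 12.1% of 6225 coding genes were lower and 16% higher, 28.1% in all. As deposited the members past 2-fold were Snai1, lower, and Snai2, higher, where 4.69% of genes were lower and 37.7% higher, 42.4% in all. The members' median was -0.52 between positive and -0.21 between negative libraries, against 0.08 and 0.10 over all coding genes. The second became 0.50 as deposited, so the direction of the list as a whole between the negative libraries follows the scaling.

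**Figure D4:**
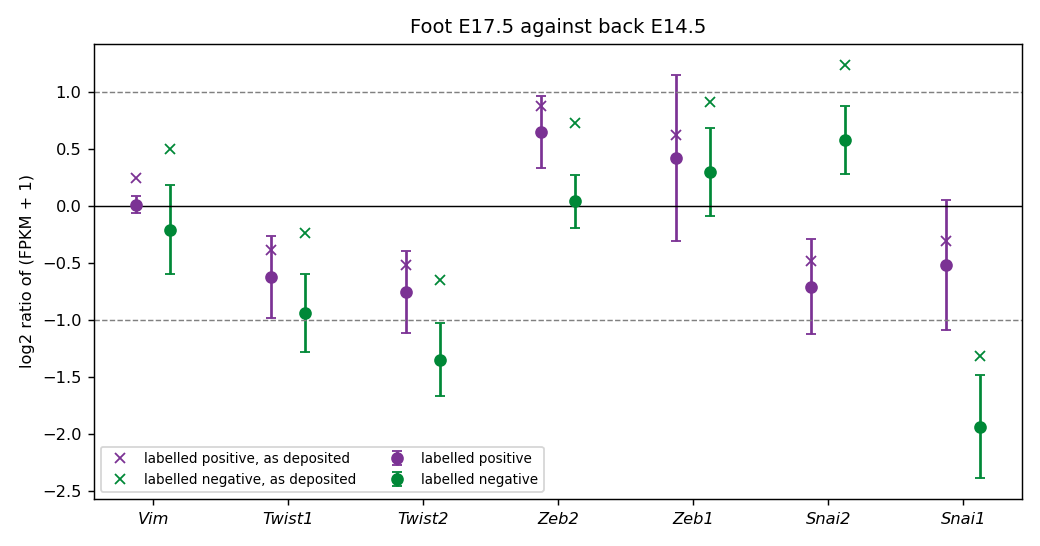
Log2 ratios of the 7 genes, foot against back, for the positive and the negative libraries; circles with bars are rescaled ratios with half-widths, crosses are as deposited, and dashed lines mark 2-fold. Twist2 (-1.35) and Snai1 (-1.94) pass the lower line between the negative libraries, and the crosses of that panel sit higher than its circles.

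The genes these repressors are known for were near or at 0. Of 20 epithelial junction and polarity genes, none reached 5 FPKM in any library. In the foot, 17 of the 20 were listed at 0 in the library labelled positive and 14 in the one labelled negative, and in the back 2 and 1 were. Cdh1 was listed at 0 in both foot libraries and at 0.879 and 0.663 FPKM in the back libraries. Epcam, shown above with 2 E-boxes, was listed at 0 in both foot libraries and at 0.806 and 0.569 in the back, and Crb3 at 0, 0, 0.117 and 0.234. In the foot library labelled negative, 3 of the 20 were at least 1 FPKM: Cldn7, a claudin of tight junctions (0 and 3.58 FPKM in the foot), Jup, the gene of plakoglobin (0.683 and 3.24), and Patj, a polarity gene listed as Inadl (0.0432 and 1.64). In the back libraries labelled positive and negative 6 and 3 of the 20 were, and in the foot library labelled positive 0. Jup was the highest of the list in both back libraries, at 3.64 and 2.80 FPKM. The foot tables list more coding genes at 0 in general, 8788 and 7917 against 6312 and 6011, so a 0 there carries less weight.

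Factors that oppose the Snail and Zeb families in epithelia were also low. None of the 9 reached 5 FPKM, and 8, 8, 2 and 2 were listed at 0 in the library order used above. Klf5 was the highest, at 1.49, 1.60, 1.42 and 1.33 FPKM, and Esrp1, a splicing regulator of epithelial cells, was 0, 0, 0.317 and 0.437. Epidermal markers followed the same division by skin: the 9 units of the keratinocyte list summed to 7.68 and 1.02 FPKM in the foot, with 6 and 8 units at 0, and to 80.0 and 40.6 in the back, with none at 0. Cdh1, Epcam and Dsp are on both this list and the junction list, so the 2 lists are not independent. Krt10 alone was 7.38 FPKM in the foot library labelled positive. The part of epidermal cells in the low epithelial values of the back was not tested.

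Several genes of mesenchymal adhesion were abundant. Cdh11, a cadherin of mesenchymal cells, was 70.8, 71.1, 50.8 and 33.6 FPKM, while Cdh2, the gene of N-cadherin, was at most 1.11. Fn1, the gene of fibronectin, was 199 FPKM in the foot library labelled positive, 23.9 in the one labelled negative, 260 in the back library labelled positive and 103 in the one labelled negative. Fn1 was higher in the positive library of both skins, by 3.24 ± 0.19 and 1.10 ± 0.09. Of the adhesion and motility list, 1 of 12 genes tested was 2-fold higher and 0 lower in the foot sort (1 and 3 as deposited), and 2 and 0 of 12 in the back sort (3 and 0), where Tagln was listed at 0 in the negative library. Between skins 4 of 13 were higher and 1 lower in the positive libraries and 7 and 2 of 13 in the negative ones, with Postn (784, 687, 94.6 and 45.6 FPKM) and S100a4 (50.2, 106, 3.46 and 2.86) higher in the foot and Acta2 (1.67, 1.98, 21.9 and 13.7) lower. As deposited, 4 and 1 of 13 were between positive libraries and 8 and 2 between negative ones. Of all coding genes, 11.3% were higher and 10.5% lower in the foot sort (8.45% and 15.3% as deposited). In the back sort 4.26% and 3.43% were (6.08% and 2.63%). Between positive libraries 16.9% were higher and 14.3% lower (22% and 10.9%), and between negative ones 16% and 12.1% (37.7% and 4.69%).

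**Figure D5:**
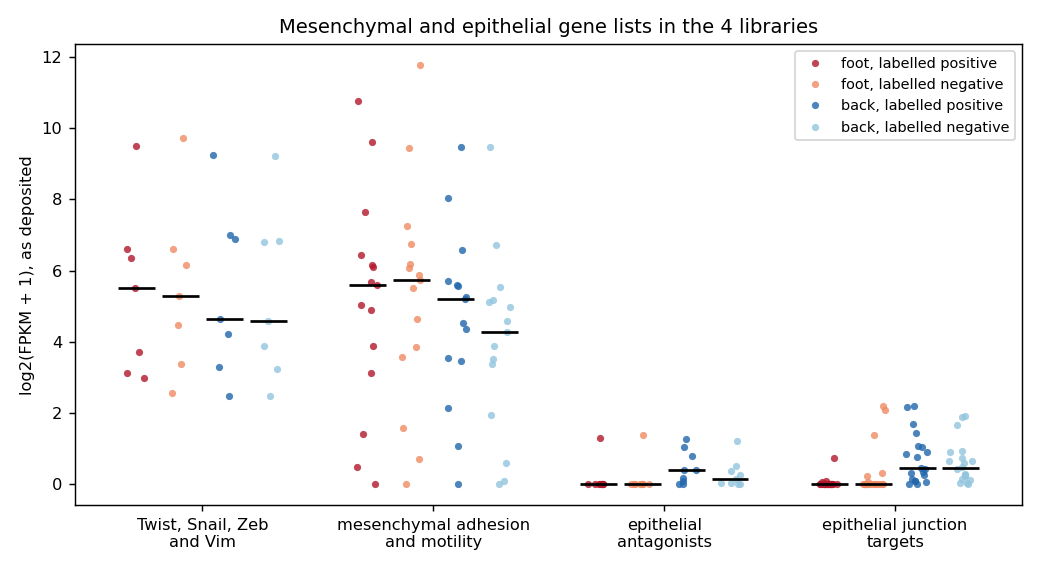
Levels as log2(FPKM + 1), as deposited, for each gene of 4 lists in the 4 libraries, 1 point per gene, with black bars for medians. No point of the epithelial junction or epithelial antagonist lists reaches 5 FPKM, while Vim, the highest point of the members, lies between 598 and 847 FPKM.

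Other transcription factors of mesenchyme were compared in the same way. Of 6 tested, 4 were at least 2-fold higher in the foot under either label, Meox2, Osr2, Prrx2 and Tbx18, and 0 were lower, with medians of 1.30 and 1.85 between positive and negative libraries. Of all coding genes, 16.9% and 16% were higher in these contrasts. By label, 0 of 6 were 2-fold apart in the foot and 0 of 5 in the back, where 1 was higher as deposited. The matching shares of all coding genes were 21.8% in the foot and 7.69% in the back, and 6.08% were higher in the back as deposited. Prrx1, a limb and dermal mesenchyme factor, was 50.0, 49.4, 44.4 and 29.1 FPKM. Among relatives of the Twist and Snail families, Hand2, a limb factor, was 9.59 and 8.22 FPKM in the foot and 0.486 and 0.498 in the back. The tendon factor Scx reached 2.64, and Scrt1 and Scrt2, neuronal relatives of Snail, at most 0.133.

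E proteins are the dimer partners of Twist factors, and Id proteins bind E proteins without contacting DNA. Id1 was 177 FPKM in the foot library labelled positive, 104 in the one labelled negative, 81.3 in the back library labelled positive and 269 in the one labelled negative. It was higher in the positive library of the foot (1.01 ± 0.17; 0.76 as deposited) and lower in that of the back (-1.93 ± 0.38). Of the 7 E protein and Id genes, 1 was higher and 1 lower than 2-fold in the foot sort (0 and 2 as deposited) and 0 and 2 in the back sort, where 11.3% and 10.5% of all coding genes were in the foot and 4.26% and 3.43% in the back. As deposited, 8.45% of all coding genes were higher and 15.3% lower in the foot sort. Tcf12 was the lower one in the foot (11.0 against 34.4 FPKM), and Id4 the other in the back (2.30 against 8.73).

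Snail and Zeb proteins repress through recruited corepressors. Of 11 tested, 0 were 2-fold apart in the foot (1 lower as deposited), where 21.8% of all coding genes were, and 1 of 9 was higher in the back, the Polycomb gene Suz12 (12.3 against 4.52 FPKM, 1.10 ± 0.45), where 4.26% of all coding genes were higher. In positive foot against back Suz12 was the only 1 of 10 past 2-fold, at -1.09 ± 0.67 (-0.87 as deposited, when 0 of 10 were), and between negative libraries 0 of 10 were, or 3 as deposited, all higher. Of all coding genes, 31.2% were past 2-fold between positive libraries and 28.1% between negative ones, and 32.9% and 42.4% as deposited. As deposited, 15.3% were lower in the foot sort and 37.7% higher between negative libraries. Hdac2 was the highest of the list, at 75.8, 81.8, 55.1 and 42.5 FPKM.

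TGF-beta signalling is the textbook inducer of these factors. Of its 12 listed genes, 1 of 11 tested was 2-fold higher in the foot sort, the co-receptor gene Tgfbr3 (9.87 against 2.30 FPKM, 1.86 ± 0.50), and 0 of 6 in the back sort. The shares of all coding genes 2-fold higher were 11.3% in the foot sort and 4.26% in the back sort. Between skins 5 of 11 were higher and 0 lower in the positive libraries, and 3 and 1 of 10 in the negative ones (6 and 1 as deposited). Of all coding genes, 16.9% were higher and 14.3% lower between positive libraries and 16% and 12.1% between negative ones. As deposited, 37.7% were higher and 4.69% lower between negative libraries. The ligand gene Tgfb2 was 17.4 and 20.2 FPKM in the foot and 3.05 and 1.63 in the back, and the inhibitory Smad7 was 7.25, 9.75, 2.11 and 1.74. Smad7 was 1.22 ± 0.64 and 1.42 ± 0.43 higher in the foot.

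The likeness of other genes to each member was measured as the root mean square difference of centred, rescaled log2 values over the 4 libraries. With 4 points and 6918 coding genes, close matches are common, and the values are a description only. Nearest to Twist1 were Cdca8 (0.010), Mlec (0.019) and Rab8a (0.020), and nearest to Twist2 were Prrc2a (0.039), Prep (0.041) and Ogfr (0.044). Snai1 had the fewest near neighbours, 2 coding genes within 0.1, with Lmo1 at 0.067, Wdhd1 at 0.097 and Srfbp1 just outside at 0.11. Snai2 had 16, led by 1110057K04Rik (0.042), Zfp62 (0.052) and D17Wsu104e (0.059). For Zeb1, Zeb2 and Vim, with 169, 117 and 150 genes within 0.1, the nearest were Selk (0.022), Naa35 (0.016) and Dnajc21 (0.0080). Among the members themselves, Twist1 and Twist2 were the closest pair (0.15), then Zeb1 and Zeb2 (0.18), and Snai1 and Snai2 were the farthest apart (0.90).

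In the genome build of the files (mm9), the loci were listed as follows. Twist1 (ENSMUSG00000035799) was at chr12:34642535-34644682 and Twist2 (ENSMUSG00000007805) at chr1:93698037-93744605. Snai1 (ENSMUSG00000042821) was at chr2:167363694-167368314 and Snai2 (ENSMUSG00000022676) at chr16:14705944-14709488. Zeb1 was at chr18:5591857-5775741, Zeb2 at chr2:44839153-44972915 and Vim at chr2:13495553-13504453, with ends that differed by a few bases between tables for Vim. Each FPKM is the sum over the transcripts of its locus, so exons, introns and UTRs are not separated.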

How the data were processed

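RNA was sequenced from 4 libraries of sorted dermal cells, 1 per group, grouped by the labels. Per the submitters' processing notes, the tools were TopHat and Cufflinks and the genome build was mm9; versions, settings and annotation were not given in the sources used here. In each table the authors deposited FPKM per gene or assembled locus with lower and upper bounds and a status, per the file headers. Read counts were not used, so the depth is unknown; the bounds give the precision.

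The 7 members and all lists were chosen with earlier results of these data known. One marker gene of the erythroid list is not reported here and was left out of its sums. Rows of 1 symbol were summed and loci joining several genes kept as 1 unit (33126 units, 975 joined); 22 symbols altered to dates were restored, 459 units with a status other than OK were left out of counts, and coding status came from GENCODE vM21 by symbol. Libraries were divided by median-ratio factors over 3700 coding genes of at least 5 FPKM in all 4. Ratios are log2 of FPKM + 1. For each value the larger distance to a bound was taken, and the 2 were combined in quadrature. A gene was counted as apart at 2-fold or more with at least 5 FPKM in the higher library. With 1 library per group no test was run.

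Genes named were all members, Axin2, and genes drawn from those that met set rules. The rules took list members 2-fold apart without overlapping bounds (up to 4 per list and comparison), the 2 highest per list, and the 3 genes nearest each member. Not every gene that met them is described. Those left out include Sparc, Id2, Ctbp1, Csnk1a1, Ctdsp2, Cldn1 and Esrp2, each among the 2 highest of its list. They also include Id3, Tcf4 and Fbxl5, which met the 2-fold rule. Btrc and Lats2 met the 2-fold rule and are described. These 2 genes, individual members of the epithelial and marker lists, and genes quoted as examples (Cdh1, Cdh2, Crb3, Epcam, Cldn7, Jup, Patj, Esrp1, Scx, Scrt1, Scrt2) were chosen after their values were seen. Python 3.11.15, numpy 2.4.6 and pandas 2.3.3 were used, and the calculation was tested on simulated data. Promoter sequences were RefSeq's (GRCm38.p6) and were matched by symbol.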

Additional observations from a re-analysis of the deposited data

Results flagged for a closer look

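Of the members, 4 had opposite signs by Axin2 label in foot and back and a foot minus back difference larger than its half-width. With 1 library in each group, the difference was not tested for any of them. The share of all coding genes that meet this rule was not computed, so the count has no background beside it. Ratios inside their own half-width were those of Snai1 in the foot (0.60 ± 0.61), Twist2 in the foot (0.44 ± 0.47) and Zeb2 in the back (-0.15 ± 0.19). Snai1 had a positive ratio in the foot (0.60) and a negative one in the back (-0.81), a difference of 1.42 ± 0.73 on the rescaled log2 scale. Snai2 had the reverse pattern (-0.51 in the foot and 0.78 in the back), a difference of -1.29 ± 0.51. Twist2 differed by 0.60 ± 0.48 (0.44 and -0.15). Zeb2 differed by 0.61 ± 0.39 (0.46 and -0.15). For Twist2 and Zeb2 the back value was 0.06 as deposited, so the opposite signs of these 2 genes are present only after rescaling; the signs of Snai1 and Snai2 held in every alternative run.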

How the results depend on the processing

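No paired analysis was possible because each group is 1 library, and no library could be left out. Of 35 member ratios and differences, 23 kept their sign in all alternatives run and 12 changed sign in at least 1, under the deposited scale, the bounds' midpoint or upper-quartile scaling. Of 308 member values under alternatives, 293 stayed within the half-width, 15 moved further and 0 were called and reversed. Using the midpoint of the bounds and leaving out genes listed at 0 were added after seeing the data. Without rescaling, the members' median between negative libraries became 0.50 and 42.4% of coding genes were 2-fold apart.

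For the foot sort, the back sort, the positive and the negative foot against back contrast and the foot minus back difference, in that order, the share of genes 2-fold apart was 9.84%, 4.47%, 17%, 15.1% and 13.7% with a pseudocount of 5. It was 10.9%, 3.47%, 15.3%, 13.5% and 14.2% of 20183 genes with no minimum FPKM, and 11%, 4.02%, 16.7%, 17.8% and 16.1% with at least 5 FPKM in both libraries (all 4 for the difference). Members past 2-fold for the difference numbered 1 with a pseudocount of 5. With the stricter minimum, 5 members remained testable between negative libraries and for the difference, and 1 passed in each. The larger pseudocount compresses ratios of low genes, and the other 2 settings alter which genes are counted; other causes were not tested. In the foot sort the half-widths of the members ran from 0.08 (Vim) to 0.75 (Zeb1).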

Other observations

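Regulators of Snail protein turnover were measured beside the Snail genes. Of 12 listed genes, 8 were tested in each sort, and 0 were 2-fold higher in either, while 1 was lower in the foot sort and 2 in the back sort. Of all coding genes, 11.3% were higher and 10.5% lower in the foot sort, and 4.26% and 3.43% in the back sort. Btrc, the gene of a ubiquitin ligase subunit that recognises phosphorylated Snai1, was 2.74 FPKM in the foot library labelled positive, 13.4 in the one labelled negative, 2.86 in the back library labelled positive and 7.99 in the one labelled negative. It was lower in the positive library of both skins, with ratios of -1.69 ± 0.53 (foot) and -1.44 ± 0.50 (back), whereas Snai1 had opposite signs in the 2 skins. Lats2, listed as a locus joined with Xpo4, was the other gene in the back, at -1.75 ± 1.30.

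Other intermediate filament genes were measured beside Vim. Lmna, the gene of the nuclear lamins A and C, was 219 and 213 FPKM in the foot and 77.2 and 54.6 in the back, and Lmnb1, the gene of lamin B1, was 3.31, 5.54, 20.3 and 9.58. Lmna was higher in the foot under both labels (1.25 ± 0.28 and 1.24 ± 0.19) and Lmnb1 lower (-2.51 ± 0.89 and -1.31 ± 0.47; the second was -0.69 as deposited). Desmin (Des), the muscle filament gene, reached 1.30 FPKM and nestin (Nes) 2.22. Of genes of vimentin partners, 10 were tested between positive libraries, with 0 higher and 5 lower in the foot (4 as deposited), where 14.3% of all coding genes were lower. Between negative libraries 9 were tested, with 0 higher and 3 lower (2 as deposited), where 12.1% of all coding genes were lower. As deposited, 10.9% of all coding genes were lower between positive libraries and 4.69% between negative ones. Actn4, an actin crosslinker, was 11.8 against 28.9 FPKM between the positive libraries (-1.45 ± 0.34). Vcl, the gene of vinculin, was listed at 0 in the foot library labelled positive, at 4.83 in the one labelled negative, and at 10.4 and 11.3 in the back libraries.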
